A study of Mus musculus with 6 samples.

Results

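The genes described here carry monoamines across membranes, break them down, or receive monoamine and melatonin signals in the newborn mouse pineal gland. The 8 genes are the vesicular monoamine transporters Slc18a1 and Slc18a2, the serotonin reuptake transporter Slc6a4, the monoamine oxidases Maoa and Maob, the dopamine receptor Drd4, and the melatonin receptors Mtnr1a and Mtnr1b. They were chosen by name, and each was read from the probe sets that the array's annotation assigns to that gene and to no other. This gave 11 probe sets for 7 of the 18193 named genes on the array; Mtnr1b was not analysed here. Where a gene had several probe sets, the one with the highest mean over the 6 arrays stands for it, and the others are shown beside it.

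Serotonin is made in pinealocytes from tryptophan, is stored in vesicles by the vesicular monoamine transporters, and is the precursor of melatonin. Serotonin and noradrenaline that leave a cell are taken back up by plasma membrane transporters, and monoamine oxidases on the outer mitochondrial membrane break down what is not stored or used. Drd4 is a dopamine receptor known for its night-time expression in the adult pineal gland and for its presence in photoreceptors, and melatonin receptors signal, as Drd4 does, through inhibitory G proteins.

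Whole glands were taken by day at postnatal day 0 from strain 129 mice housed under a cycle of 12 h light and 12 h dark. The wildtype group had 3 pools, and the group homozygous for a Neurod1 knockout, described in the labels also as transgenic, had 3 pools. Each pool held 3 glands, was 1 separate sampling and was run on 1 Affymetrix array after a single round of RNA amplification, so a value is an average over 3 animals, and which part of Neurod1 was removed is not in the labels. Values are signals, a linear fluorescence intensity that the authors had scaled to a common level, with array medians between 132 and 184. Differences are knockout minus wildtype on the scale of log2(signal + 38.6), which understates the change of dim genes. In whole glands, fewer cells of a type and less RNA per cell cannot be told apart.

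Neurod1, a transcription factor gene of neurons, endocrine cells and photoreceptors, had signals of 7519 to 9301 in the wildtype and 122.5 to 524 in the knockout pools, and was the 1 gene of 12797 tested that passed an adjusted p of 0.05 in limma (0.00781% of genes; adjusted p = 0.0362). All 16 markers of a pinealocyte list were above the filter on dim probe sets, which uses the mean over the 6 arrays. Among them Tph1 was at 2755 to 15095, so this transcript of the gland was plain in every pool. Not every marker was, as Pde6b was at 18.4 in wildtype pool 3 and at 53.4 in knockout pool 3. Pools of 1 number shared a date in the labels and are compared within numbers as well. Single arrays stood apart in other tissues' transcripts: Ttr, abundant in choroid plexus, was at 898 and 685 in wildtype pool 1 and knockout pool 3 and at least at 38903 elsewhere, and Crisp2 of male germ cells was at 17677 and 1700.1 in knockout and wildtype pool 2 and at most at 11.2 elsewhere.

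None of the members passed the threshold, which 0.00781% of all tested genes did. Of the 7 measured, 5 were above the filter and were tested, with 3 higher and 2 lower in mean, while Slc6a4 and Mtnr1a were too dim. The median difference of the 5 was 0.07, beside 0.03 over all 12797 genes. The largest difference on the log2(signal + 38.6) scale, 1.39, belonged to a gene below the filter, Slc6a4, with every knockout pool above every wildtype pool in deposited signal. The other members lay between -0.18 and 0.62. Slc6a4 and Mtnr1a each had 2 wildtype pools under the offset of 38.6, so no fold over wildtype is given for them.

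**Figure D1:**
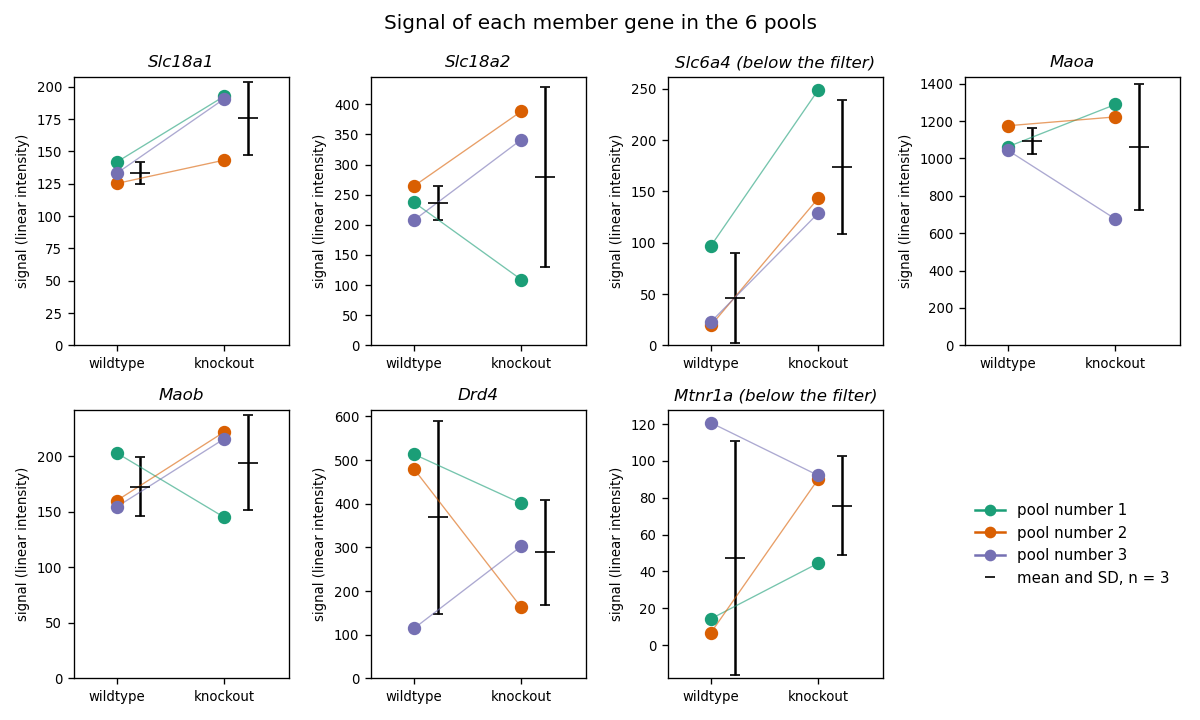
Signal (linear intensity, vertical axis from 0 or below) of the 7 measured members in 3 wildtype and 3 knockout pools, 1 point per pool, with lines joining pools of the same number and bars for the mean and SD (n = 3). Slc18a1 and Slc6a4 have no overlap between the groups, and in Slc18a2 and Maob knockout pool 1 lies below every wildtype pool while the other knockout pools lie above them.

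Upstream sequence is shown for 2 serotonin carriers, Slc6a4, the member with the largest difference, and Slc18a2, whose groups overlapped. Neurod1 belongs to the basic helix-loop-helix factors, which bind a short sequence called the E-box (CANNTG). The sequences are the 250 bases before the annotated start, from RefSeq on build GRCm38.p6, which is a C57BL/6J assembly and not strain 129, and both lie on the + strand. Capitals mark an E-box of the form CAGCTG, which is its own reverse complement.
Slc6a4, chr11:76998347-76998596: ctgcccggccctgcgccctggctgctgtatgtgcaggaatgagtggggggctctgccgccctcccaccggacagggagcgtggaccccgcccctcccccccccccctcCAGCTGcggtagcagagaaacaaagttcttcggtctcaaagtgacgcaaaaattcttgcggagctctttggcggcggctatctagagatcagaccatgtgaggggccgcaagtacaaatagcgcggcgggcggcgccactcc
Slc18a2, chr19:59260628-59260877: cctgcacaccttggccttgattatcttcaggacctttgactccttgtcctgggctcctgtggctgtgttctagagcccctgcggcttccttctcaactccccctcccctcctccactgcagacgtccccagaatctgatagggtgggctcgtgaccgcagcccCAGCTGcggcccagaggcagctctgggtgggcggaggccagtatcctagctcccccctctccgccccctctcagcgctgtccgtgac
Each sequence holds the marked E-box once, starting 142 bases before the start of Slc6a4 and 87 bases before that of Slc18a2. Searched on both strands, 13.0% of 32851 RefSeq promoter windows of this length hold the marked form. Any E-box, of which the marked form is a case, is in 66.2% of them. Windows of Maoa, Drd4, Mtnr1a and Mtnr1b were also in the table, with 1, 0, 4 and 1 matches to any E-box and 0 to the marked form. By the same count Slc6a4 had 2 matches, the marked one and another that is not capitalised, and Slc18a2 had the marked one alone. The 2 sequences shown are thus the only member windows with the marked form. Slc18a1 and Maob had no window. Another E-box that Neurod1 is known to bind has the letters CAGATG, which were in 0 of these 6 windows and in 14.4% of all. A core site of the homeobox factors Crx and Otx2 has the letters TAATCC, which were in 0 of the 6 windows and in 6.25% of all, on either strand. A match describes letters only, and binding was not measured.

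Slc6a4 encodes the plasma membrane transporter that clears serotonin from outside the cell. Its probe set 1417150_at had signals of 97.1, 19.4 and 23.0 in wildtype pools 1, 2 and 3, and of 249, 143 and 129 in knockout pools 1, 2 and 3. The groups did not overlap, and pool 1 was the highest of its group in both genotypes. The means were 46.5 ± 43.9 in wildtype and 174 ± 65.6 in knockout (SD, n = 3), and the log2 difference was 1.39. Within numbers 1, 2 and 3 the difference was 1.08, 1.65 and 1.44.

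These levels were low. The mean level of Slc6a4, 88.7 on the log scale turned back to signal, was under the 105 that the filter asks for, so the gene was not among those tested. In a fit of all 18193 genes without the filter, its SE was 0.43, its 95% interval 0.42 to 2.37, its unadjusted p 0.0103 and its adjusted p 0.998 in limma. With the pool number as a block in that fit, the SE was 0.35, the unadjusted p 0.00495 and the adjusted p 0.808. Without the filter, 3.95% of genes had an unadjusted p under 0.05, or 5.92% with the block, and 6.67% were higher in knockout with no overlap. As a rank within each array, Slc6a4 stood at the 43.2, 13.2 and 11.8 percentile in wildtype pools 1, 2 and 3 and at 58.6, 45.5 and 42.5 in the knockout pools. Wildtype pool 1 thus ranked above knockout pool 3, and after quantile normalization the groups overlapped, at 128 and 124 in these pools. The separation holds on the deposited scale and with arrays set to a common median, and does not hold by rank.

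Slc6a4 is also known in platelets, mast cells and raphe neurons, and markers of these cells were read in the same pools. The summed signal of 9 mast cell markers was 4210 to 4638 in wildtype and 6034.5 to 7315 in knockout, with 8 of 9 higher in mean. Of 7 measured platelet and megakaryocyte markers 5 were higher in mean, and their sum was 2416 to 3708 in wildtype and 4331 to 6173 in knockout. For both lists the groups did not overlap, 0 markers were below 38.6 on every array, and 0 passed the adjusted threshold. Such a separation was not particular to these lists: of 12 marker lists the sums of 5 were higher in knockout without overlap and of 1 lower. The others that were higher were the pericyte and smooth muscle list (10729 to 14179 in wildtype and 14644 to 22707 in knockout, 8 of 8 markers higher in mean), the meningeal fibroblast list (82073 to 87590 and 104017 to 124813, 7 of 8) and the raphe neuron list. The mast cell protease gene Cpa3 had 1791 to 2073 in wildtype and 3016 to 3518.5 in knockout. Kit of the same list was lower in mean, at -0.12, and overlapped between the groups, and Ms4a2 differed by 0.04. The platelet factor gene Pf4 had 1486 to 2649.5 in wildtype and 3339 to 4662 in knockout. Most of the platelet sum was Pf4, so its separation leans on this gene. Itga2b and Treml1 of that list were lower in mean, at -0.06 and -0.04. Of the raphe neuron list 4 of 6 were measured and 3 of these were higher in mean, with a sum of 1033 to 1716 and 1741 to 2573, most of it from Gata2. Lmx1b, a homeobox gene of that list, had 185.6 to 200.6 in wildtype and 313.7 to 359.8 in knockout, while the neuronal tryptophan hydroxylase gene Tph2 was at most 59.0 on any array and Gata3 was below 38.6 on every array. Pinealocyte markers summed to 57130 to 75342.5 in wildtype and 39669 to 61138 in knockout, with 12 of 16 lower in mean. The part of these cells in the Slc6a4 values was not tested.

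**Figure D2:**
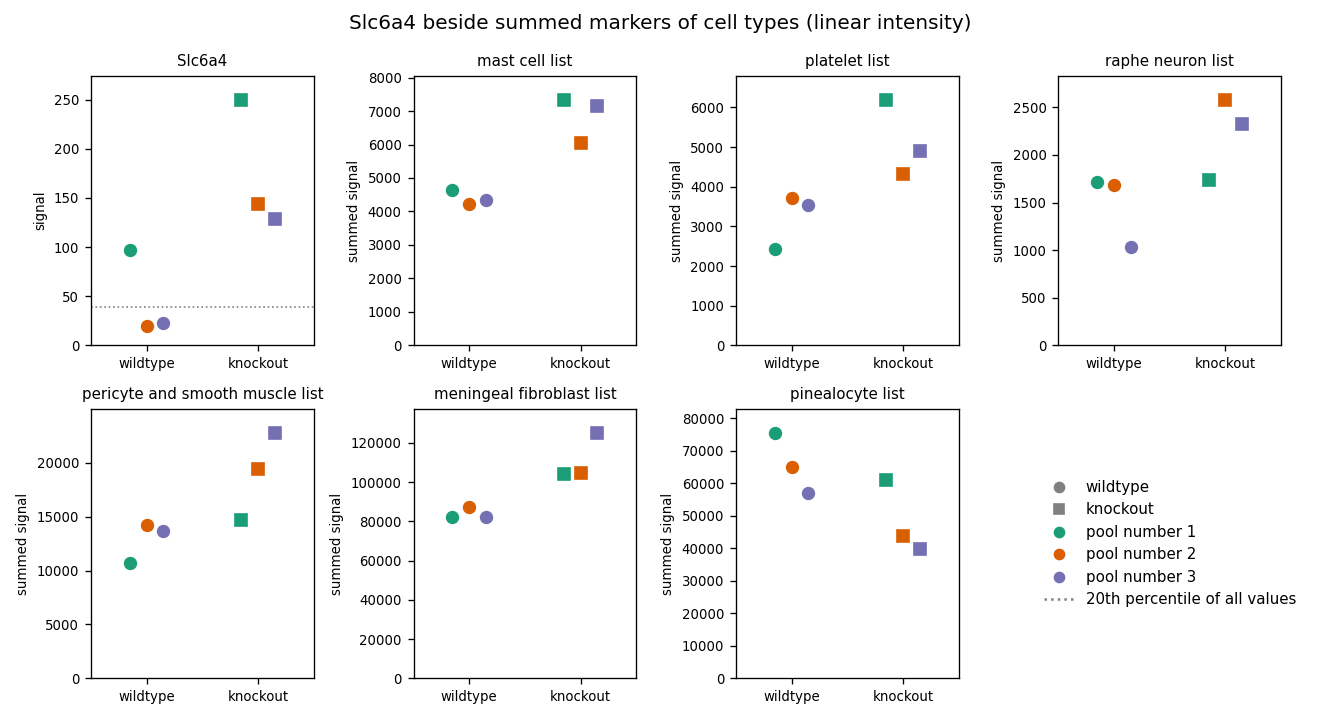
Signal of Slc6a4 and summed signals of 6 marker lists (vertical axes from 0, linear intensity), 1 point per pool, circles for wildtype and squares for knockout, with a dotted line at 38.6 in the Slc6a4 panel. Wildtype pools 2 and 3 lie below that line for Slc6a4, and the pinealocyte sums overlap between the groups while the other 5 sums do not.

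Slc18a1 encodes the vesicular monoamine transporter VMAT1, the form of endocrine and paracrine cells. Its probe set 1426595_at had signals of 142, 125 and 133 in wildtype pools 1, 2 and 3, and of 193, 143 and 191 in knockout pools 1, 2 and 3. The groups did not overlap, but knockout pool 2 lay only just above wildtype pool 1, at 143.2 against 141.8. The means were 133 ± 8.30 and 175 ± 28.0 (SD, n = 3). The log2 difference was 0.31 (SE 0.30, 95% interval -0.37 to 0.98), with an adjusted p of 0.998 in limma. As folds of signal plus the offset of 38.6, the interval ran from 0.775 to 1.98, so an increase and a decrease both lay in it. These understate the folds of signal alone. Within numbers 1, 2 and 3 the log2 difference was 0.36, 0.15 and 0.42. Slc18a1 was the 1 tested member of 5 without overlap, beside 5.77% of all tested genes that were higher in knockout without overlap and 4.33% that were lower. By rank within the arrays, or with arrays set to a common median, the groups overlapped.

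Its other probe sets were dimmer in mean, and only that below the filter had a difference in the other direction. Probe set 1446248_at had 60.1, 77.7 and 143 in wildtype and 108, 140.4 and 164 in knockout, a log2 difference of 0.45 with overlap, higher within all 3 numbers. Probe set 1458777_at lay below the filter, between 2.80 and 50.2 on all arrays, with a difference of -0.11.

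Slc18a2 encodes VMAT2, the vesicular transporter of neurons, platelets and mast cells. Its 1 probe set had signals of 237, 264 and 208 in wildtype pools 1, 2 and 3, and of 109, 388 and 341 in knockout pools 1, 2 and 3. Knockout pool 1 was the lowest of the 6, and the other knockout pools were the highest. The means were 236 ± 28.4 and 279.5 ± 149 (SD, n = 3), with a log2 difference of 0.07 (SE 0.41, 95% interval -0.86 to 1.00, limma adjusted p 0.998). Within numbers 1, 2 and 3 the difference was -0.90, 0.49 and 0.63. Without knockout pool 1 it was 0.56 (adjusted p = 0.570), without wildtype pool 2 it was 0.15, and without wildtype pool 3, knockout pool 2 or knockout pool 3 it was -0.0041, -0.21 or -0.13, so its size and direction changed with single pools.

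Maoa encodes the monoamine oxidase that prefers serotonin and noradrenaline. Its probe set 1428667_at had signals of 1063, 1175 and 1043 in wildtype pools 1, 2 and 3, and of 1289, 1222 and 676 in knockout pools 1, 2 and 3. Knockout pools held the 2 highest values and the lowest. The means were 1094 ± 71.3 and 1062 ± 336 (SD, n = 3), with a log2 difference of -0.09 (SE 0.32, 95% interval -0.80 to 0.62, limma adjusted p 0.998). The interval runs from 0.572-fold to 1.54-fold of signal plus the offset of 38.6, so changes outside that range are not in it. Within numbers 1, 2 and 3 the difference was 0.27, 0.05 and -0.60, and without knockout pool 3 it was 0.19. Without knockout pool 1, knockout pool 2 or wildtype pool 2 it was -0.25, -0.22 or -0.04.

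The second Maoa probe set, 1442676_at, was low in both pools numbered 1. Its signals were 290.5, 1709 and 903 in wildtype pools 1, 2 and 3, and 156, 1251 and 1522 in knockout pools 1, 2 and 3. Both pools numbered 1 were far below the other 4, a pattern that 1428667_at did not have, since there knockout pool 1 was the highest of all. The difference was -0.15 over all pools and -0.76, -0.44 and 0.73 within numbers 1, 2 and 3. Why the probe sets of 1 gene part by pool number was not tested.

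Maob encodes the form of the enzyme that prefers phenylethylamine and is known in astrocytes and serotonergic cells. Its 1 probe set had signals of 203, 160.3 and 155 in wildtype pools 1, 2 and 3, and of 145, 222 and 216 in knockout pools 1, 2 and 3. As in Slc18a2, knockout pool 1 was the lowest of the 6 and the other knockout pools were the highest. The means were 173 ± 26.5 and 194 ± 42.7 (SD, n = 3), with a log2 difference of 0.13 (SE 0.30, 95% interval -0.54 to 0.81, limma adjusted p 0.998). Within numbers 1, 2 and 3 the difference was -0.40, 0.39 and 0.40, and it was 0.29 without knockout pool 1 and 0.23 without wildtype pool 1. Without wildtype pool 3, knockout pool 2 or knockout pool 3 it shrank to 0.07, 0.04 or 0.06. The summed signal of 8 astrocyte or interstitial glia markers was 41440 to 64407 in wildtype and 59466 to 76464 in knockout, highest in knockout pool 1, where Maob was lowest. Most of that sum was Gja1, at 30178 to 57538, and Fabp7 was at 15289 in knockout pool 1 against 2436 and 2213 in the other knockout pools. Of the 8 markers 6 were higher and 2 lower in mean, and their part in the Maob values was not tested.

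Drd4 encodes the dopamine D4 receptor. Its probe set 1422830_s_at had signals of 513, 479.7 and 114 in wildtype pools 1, 2 and 3, and of 401, 163 and 302.5 in knockout pools 1, 2 and 3. Wildtype pools held both the highest and the lowest values, so the knockout pools lay within their range. The means were 369 ± 221 and 289 ± 120 (SD, n = 3), with a log2 difference of -0.18 (SE 0.52, 95% interval -1.35 to 0.99, limma adjusted p 0.998). This is the widest interval of the 5 tested members, running from 0.393-fold to 1.99-fold of signal plus the offset of 38.6. Within numbers 1, 2 and 3 the difference was -0.33, -1.36 and 1.16. Without wildtype pool 1, wildtype pool 2 or knockout pool 2 it was 0.15, 0.10 or 0.14, and without wildtype pool 3, knockout pool 1 or knockout pool 3 it was -0.78, -0.43 or -0.24. The other probe set, 1422829_at, had 215, 236 and 168.5 in wildtype and 365.5, 349.7 and 78.7 in knockout, a difference of 0.12. The probe sets thus had opposite signs overall and within each number, at 0.67, 0.50 and -0.82 for 1422829_at.

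Mtnr1a encodes the melatonin receptor MT1. Its 1 probe set had signals of 14.3, 6.8 and 121 in wildtype pools 1, 2 and 3, and of 44.5, 90.2 and 92.1 in knockout pools 1, 2 and 3. The highest and both lowest values were wildtype, and the groups overlapped. The means were 47.3 ± 63.7 and 75.6 ± 27.0 (SD, n = 3), and the log2 difference was 0.62, with 0.65, 1.50 and -0.29 within numbers 1, 2 and 3. Without wildtype pool 2 it was 0.28, and without wildtype pool 3 it was 1.19. The gene ranked no higher than the 38.3 percentile of any array. In the fit without the filter its SE was 0.49 and its adjusted p 0.998 in limma, so neither a level nor a difference could be read with confidence here.

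**Figure D3:**
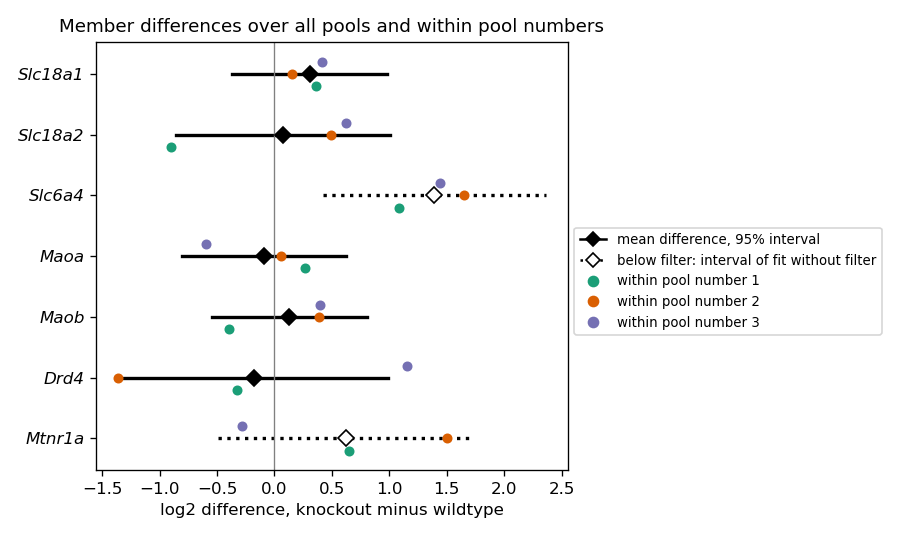
Log2 difference, knockout minus wildtype (horizontal axis), of the 7 measured members: diamonds are the mean difference with its 95% interval, coloured points the difference within each pool number. The intervals of the 5 tested members include 0, and Slc6a4, drawn from the fit without the filter, runs from 0.42 to 2.37 before any adjustment.

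**Figure D4:**
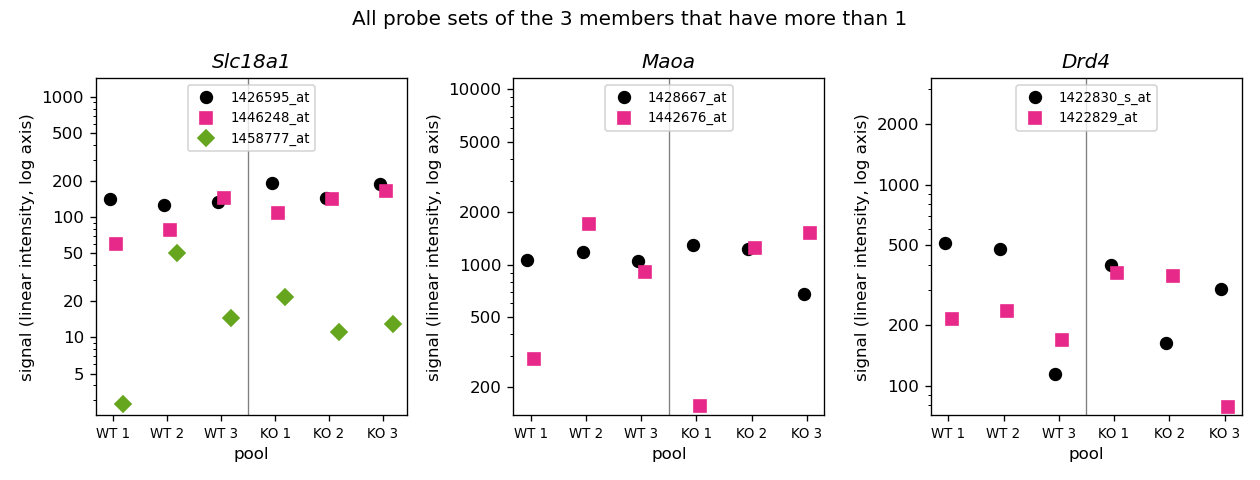
Signal (linear intensity on a log axis) of every probe set of Slc18a1, Maoa and Drd4 in each of the 6 pools, with wildtype left and knockout right of the vertical line. For Maoa, 1442676_at lies at 290.5 and 156 in the pools numbered 1 and between 903 and 1709 elsewhere, while 1428667_at lies between 676 and 1289 in all pools.

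Within the pool numbers the members fell into different patterns. Slc18a1 and Slc6a4 were higher in knockout within all 3 numbers. Of the tested genes, which do not include Slc6a4, 14.9% were higher within all 3 and 15.4% were lower within all 3. Slc18a2 and Maob were lower in number 1 and higher in numbers 2 and 3. Maoa (1428667_at) was higher in numbers 1 and 2 and lower in number 3, and Drd4 (1422830_s_at) was lower in numbers 1 and 2 and higher in number 3.

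The tested genes closest in profile over the 6 arrays, by the root mean square difference between log2 profiles centred on their own means, were Triqk and Zfp512b for Slc18a1 (0.06 and 0.06), and Ralb and Tet2 for Slc18a2 (0.07 and 0.09). For Maoa they were 1110051M20Rik and Cibar1 (0.06 and 0.07), for Maob Macf1 and Slc7a2 (0.03 and 0.04), and for Drd4 Ephb3 and Nubp2 (0.14 and 0.17). The median distance to all other tested genes was between 0.42 and 0.77. With 6 arrays and 12796 candidates for each member, close profiles are found for any gene, and these are given as a description. Macf1 had 7325 in knockout pool 1 and 10639.7 to 10864 in the other knockout pools, against 8037 to 9802 in wildtype, so its pools stood in the same order as those of Maob.

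Genes that make monoamines had lower means in 9 of 11 tested cases, with a median difference of -0.45, and 0 passed the threshold. Ddc, which decarboxylates the precursors of serotonin and dopamine, had 4613, 2456 and 2127.5 in wildtype pools 1, 2 and 3 and 2493, 1138 and 854.5 in the knockout pools, a difference of -1.08 (SE 0.46, limma adjusted p 0.998), with -0.58 for its dimmer probe set. Pnmt, which methylates noradrenaline, had a difference of -0.74 (SE 0.47), while its dimmer probe sets had 0.37 and 0.36. Aanat, which acetylates serotonin, had a difference of -0.45 (SE 0.28). Tph1, the first enzyme of serotonin synthesis in the gland, had -0.89 (SE 0.57). The medians within numbers 1, 2 and 3 were -0.04, -0.70 and -0.37. Without knockout pool 2 or 3 the median was -0.19 or -0.20, and without any other single pool it lay between -0.55 and -0.30.

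Other carriers of monoamines had 4 tested members of 7 annotated, 3 with higher and 1 with a lower mean (median 0.38), and 0 passed. The noradrenaline transporter gene Slc6a2 had 202, 373 and 378 in wildtype and 467, 495 and 414 in knockout pools 1, 2 and 3, without overlap (0.52, SE 0.29), and its other probe sets had 0.03, -0.54 and 0.27. Slc18b1, a vesicular polyamine transporter gene, had a difference of 0.37 (SE 0.25), and Slc29a4, the plasma membrane monoamine transporter, 0.39 (SE 0.28, with 0.03 for its dimmer probe set). Averaged over all probe sets of each gene, the median of the list was 0.14, and it was 0.25 without wildtype pool 1. Slc6a2 is also on the list of catecholamine or sympathetic neurons. Of the 8 genes on that list 7 were measured, and 5 were higher in mean. Their sums, which include Slc6a2 itself, were 677 to 1171 in wildtype and 1012 to 1386 in knockout. Th and Dbh, enzymes that make noradrenaline, had differences of -0.18 and 0.04. The dopamine transporter gene Slc6a3, of the same list and below the filter, had 19.2, 17.0 and 101.2 in wildtype and 166.6, 100.8 and 139.2 in knockout pools 1, 2 and 3, with overlap. The source of the Slc6a2 transcript in the gland was not tested.

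Other breakdown and conjugation enzymes had 13 tested members, 7 higher and 6 lower, with a median of 0.01, and 0 passed. Sult1a1, a sulfotransferase of phenols and monoamines, had 349.8, 540.2 and 337 in wildtype and 1023, 738 and 616 in knockout pools 1, 2 and 3, without overlap. Its difference was 0.89 (SE 0.30, unadjusted p 0.0155 and adjusted p 0.998 in limma), with 1.45, 0.42 and 0.80 within numbers 1, 2 and 3. Cyp1b1, a cytochrome P450 that can hydroxylate melatonin, had a difference of 0.46 (SE 0.34), with -0.01 and 0.50 for its other probe sets, and Ido2, an enzyme of tryptophan breakdown, 0.44 (SE 0.34). With arrays set to a common median 3 of the 13 were higher, and the share of all tested genes with higher means went from 53.2% to 37.7%. A common median shifts the difference of every gene by the same amount. Relative to the median of all genes, that of the list therefore had to stay at -0.02. After quantile normalization 5 of the 13 were higher, and the relative value was -0.07. Leaving out knockout pool 1 put the list's median at -0.21, and leaving out knockout pool 3 put it at 0.12.

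Serotonin receptors had 7 tested members of 13 annotated, 6 with higher means, a median of 0.31, and 0 past the threshold. The medians within numbers 1, 2 and 3 were 1.25, -0.09 and -0.11, and without both pools numbered 1 the median was -0.08. Left out singly, wildtype pool 1 and knockout pool 3 brought it to 0.06 and 0.15, and wildtype pool 3 and knockout pool 2 to 0.65 and 0.63. Htr1b had 123, 287 and 339.7 in wildtype and 499, 266 and 306 in knockout pools 1, 2 and 3 (0.50, SE 0.38), and its other probe set gave -0.06. Htr7 and Htr1d had differences of 0.51 (SE 0.37) and 0.35 (SE 0.44). The dopamine receptor genes Drd1 and Drd2, the 2 tested of 4 annotated in their list, had 0.44 (SE 0.50) and 0.55 (SE 0.50), and both overlapped between the groups. Their median of 0.50 lay between 0.22, without wildtype pool 1, and 0.92, without wildtype pool 3.

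The signalling partners of these receptors, inhibitory G protein subunits, adenylyl cyclases, RGS proteins, arrestins and potassium channels, had 22 tested members, 11 higher and 11 lower, with a median of -0.01, and 0 passed. That median lay between -0.13, without wildtype pool 3, and 0.12, without wildtype pool 1. Adcy5, an adenylyl cyclase inhibited by such G proteins, had 358, 251 and 299 in wildtype and 416, 518.5 and 442 in knockout, without overlap (0.55, SE 0.25), with 0.43, 0.14 and -0.20 for its other probe sets. Rgs7 and Rgs4, which speed the turn-off of G proteins, had differences of -0.64 (SE 0.32) and 0.59 (SE 0.32), with 0.0029 and 0.40 for the other Rgs4 probe sets. Over all 6 lists, 0 of 59 tested genes passed the threshold, and 2 had an unadjusted p under 0.05 in limma, beside 428 of all 12797 (3.34%).

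**Figure D5:**
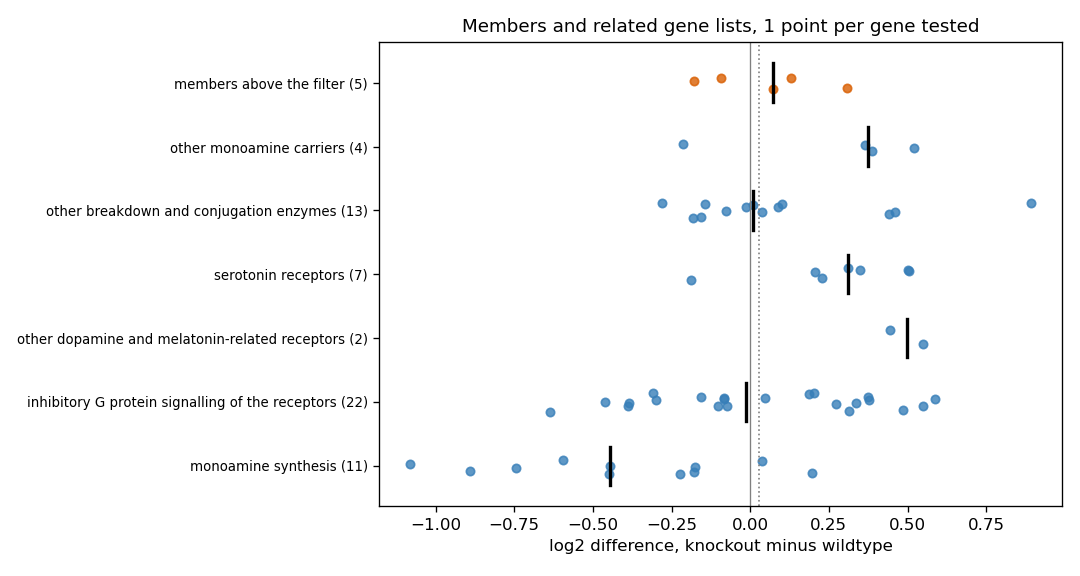
Log2 difference, knockout minus wildtype (horizontal axis), of each tested gene in the 5 tested members and in 6 lists of related genes, with a black bar at each median, a solid line at 0 and a dotted line at the median of all genes tested (0.03). The 11 synthesis genes have a median of -0.45, and the 5 tested members lie between -0.18 and 0.31.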

How the data were processed

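Transcript levels were read from the intensity values the authors deposited, 1 linear signal for each of 45037 probe sets on 6 arrays. The submitters' processing notes name GCOS; its version and algorithm are not given in the sources used here. Trimmed means of the arrays (2% off each end) lay between 499.5 and 499.96, so the authors had scaled them. Detection calls were not analysed here. The annotation gave 1 gene for 34945 probe sets, several for 932 and none for 9160; 34741 matched RefSeq by gene ID, with 0 symbols changed.

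Values were used as log2(signal + 38.6), the offset being the 20th percentile of all values. Probe sets in the lowest 40% by mean log2 value (signal under 105) were dropped, and each gene took its probe set of highest mean, leaving 12797 genes. Genotypes were compared by limma 3.58.1 in R 4.3.3 (lmFit, eBayes with a trend, two-sided, Benjamini-Hochberg over all genes, threshold 0.05, 4 residual degrees of freedom), checked on simulated data. With 3 pools against 3 an exact permutation test cannot go below p = 0.1, so none is given, and precision is limited by the number of arrays. SEs and intervals are limma's.

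The pool numbers share a date in the labels, and deviations from group means correlated by 0.32, 0.25 and 0.36 within numbers 1, 2 and 3, so a fit with the number as a block was an alternative. The others changed offset, normalization, filter, probe set, variance model, array weights and the pools used.

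Named genes were Neurod1, the members, Tph1, Ddc, Aanat, the 3 of smallest p per related list, and the 2 nearest profiles per tested member. From marker lists, Ttr, Crisp2, Cpa3, Kit, Ms4a2, Pf4, Itga2b, Treml1 and Pde6b were picked after their values were seen. So were Gata2, Gata3, Lmx1b, Tph2, Gja1, Fabp7, Slc6a3, Th and Dbh, also from marker lists. The members and lists were chosen with earlier results of these data known.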

Additional observations from a re-analysis of the deposited data

How the results depend on the processing

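Over all alternatives that gave a value, Slc18a1 and Slc6a4 kept a higher mean in knockout, at 0.17 to 0.45 and 0.86 to 1.94, as did Mtnr1a at 0.18 to 1.19. For Slc18a1 and Slc6a4 much of this was fixed in advance. Their groups did not overlap, so leaving out pools or changing the offset could not turn the sign. The block, the filter and the variance model do not change the difference of a gene. Slc18a1 lay between 0.25 and 0.42, Slc6a4 between 1.15 and 1.79, and Mtnr1a between 0.28 and 1.19 when 1 pool was left out. Leaving out 1 pool put Slc18a2 between -0.21 and 0.56, Maoa between -0.25 and 0.19, Maob between 0.04 and 0.29, and Drd4 between -0.78 and 0.15. A common array median moved the median of all genes from 0.03 to -0.11 and their share with higher means from 53.2% to 37.7%. This setting shifts the difference of every gene by the same amount, and it turned Slc18a2 to -0.067 and Maob to -0.0092. Array weights (7.05 and 6.20 for both pools of number 2, no more than 0.541 for any other) did not reach limma's convergence tolerance, which limits what follows from them. They called 2932 of the 12797 genes, so a call was common under this setting, and 1 of the 5 tested members. That member was Drd4, at -1.19 (limma adjusted p 0.0104), and no member passed under any other alternative. With most weight on number 2, this value lay near the -1.36 of Drd4 within that number. Maoa turned to 0.022. Leaving out both pools of a number, chosen after seeing the data, gave 0 genes called for each number, with 723, 123 and 586 at an unadjusted p under 0.05 in limma. Slc18a2 was -0.14 and -0.20 without numbers 2 and 3, Drd4 was 0.41 without number 2, and Maoa and Maob were 0.16 and -0.00237 without number 3. The second probe set of Drd4, also chosen after seeing the data, gave 0.12. The causes of these moves were not tested, beyond the fewer arrays or other values each setting uses. Counts of genes called were 0 with the offset at the 5th percentile (Neurod1 limma adjusted p 0.0610) and 0 to 1 when 1 pool was left out. Neurod1 was no longer called without wildtype pool 1, 2 or 3 or without knockout pool 1. With every probe set fitted, 2 of 22012 probe sets were called, each lower in knockout. That count is of probe sets, so it need not mean a further gene. With the replicate block 1 gene was called, and it changed no member's call (smallest limma adjusted p 0.855). With the lowest 60% left out, Slc18a1 and Maob were not tested. Settings that act only on tested genes gave no value for Slc6a4 and Mtnr1a. Dim signals limit what can be read for these 2 genes.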
